A study of Macaca fascicularis with 12 samples.

Results

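The genes described here encode the nuclear part of the mitochondrial respiratory chain and its helpers. They were chosen by gene symbol: the probe had to carry 1 symbol, beginning with NDUF, with SDH and a letter from A to D, with UQCR, with ATP5, or with COX and a digit from 4 to 8. This gave 81 of the 18160 genes with a single-symbol probe, on 102 of the 53877 probes tested, and each gene was represented by its brightest probe. Of these genes 67 encode subunits: 30 of complex I, 2 of complex II, 4 of complex III, 16 of complex IV and 15 of complex V. The other 14 share the symbols but are not subunits: NDUFAF1 to NDUFAF8, SDHAF1, SDHAF3 and SDHAF4 are assembly factors, COX7A2L acts in supercomplex assembly, ATP5IF1 is an inhibitor of the ATP synthase, and SDHAP4 is annotated as a pseudogene. Another 23 probes name a member beside other symbols and were not used, so that SDHA, UQCRC1, UQCRH, NDUFS3 and ATP5PO have no value here, and no probe was matched to NDUFA4 or NDUFA4L2.

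Transcripts had been measured in left iliac arteries taken at biopsy from 12 female cynomolgus monkeys (Macaca fascicularis), each animal giving 1 artery for 1 array. All animals were over 20 years old, had eaten a high fat diet for 8 years and had been without ovaries for 4 of them. None had received treatment, so every artery, those with small plaque included, shares that background. The submitters grouped them by measured plaque area into small (n = 4, 0 to 0.113 mm2), medium (n = 5, 0.3 to 0.542 mm2) and large (n = 3, 0.61 to 1.003 mm2). The small group is not free of disease throughout. For 2 of its arteries an area of 0 was used, as is done where the label gives none, and the others had 0.041 and 0.113 mm2. The arrays carry human CodeLink probes, and how well each probe pairs with the monkey transcript was not assessed, so only values of the same probe are compared.

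The respiratory chain sits in the inner mitochondrial membrane. Complex I takes electrons from NADH and complex II from succinate, both pass them through ubiquinone to complex III and on through cytochrome c to complex IV, which reduces oxygen. Complexes I, III and IV pump protons, and complex V, the ATP synthase, uses the gradient to make ATP. In the arterial wall this ATP supplies contractile smooth muscle, endothelium and any immune cells that have entered.

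Values are log2 intensities on a scale where 0 lies close to the median of each array and a difference of 1 is a 2-fold difference. Array medians were 1 to 1.01, and correlations between arrays across probes were 0.918 to 0.972. The 99th percentile of intensity was 195.8 in small replicate 1 and 114.2 to 147.6 in the other 11 arteries. Cell type markers differed between the groups. In medium and large against small arteries, 5.19% and 2.16% of all genes passed the test described below. Of 16 macrophage markers 11 rose in the medium group and 10 in the large group, and their summed intensity was 79.55 to 149.2 in small, 349.4 to 696.8 in medium and 360.5 to 543.7 in large arteries, although CD68 differed by -0.44 and -0.66 and was not called. Of 11 contractile smooth muscle markers 2 fell in the medium group and 1 in the large group, and their summed intensity was 2280 to 3181, 888.6 to 1872 and 1193 to 2116. In whole tissue, fewer cells of a type and less RNA per cell cannot be told apart, and the part of cell composition in the values below was not tested.

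Few genes of the respiratory chain passed the test between plaque groups, as was so of genes in general. In medium against small arteries 1 of the 81 genes passed the test (ATP5PB, higher), where 5.19% of all single-symbol genes did, 3.58% as a rise. In large against small arteries 1 of the 81 passed (NDUFA5, lower), where 2.16% of all genes did, 0.253% as a fall. Both comparisons share the same 4 small arteries. The tests were limma fits with p adjusted over all probes, at a threshold of 0.05. At an unadjusted p under 0.05 there were 9 members in medium against small (11.1%, against 22.9% of all genes) and 10 in large against small (12.3%, against 20.7%). Small replicate 4 and medium replicate 5 carry animal identity numbers apart from the rest, and without both of them neither call held (adjusted p = 0.0711 for ATP5PB and 0.0973 for NDUFA5).

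The difference was under 0.5 in either direction for 69 of 81 genes in medium and 63 of 81 in large against small. Of all 18160 genes, 12993 and 12491 were within that limit. Its 95% interval lay wholly between -1 and 1 for 61 genes in the medium group (75.3%, against 59.6% of all genes) and for 52 genes in the large group (64.2%, against 51.2%). For the remaining members the interval reached a 2-fold difference in at least 1 direction. The median difference over the 81 members was -0.13 in medium and -0.10 in large arteries, and over all genes it was -0.03 and -0.05. At like brightness the bins differed. With a mean log2 intensity above 6 the medians were -0.21 and -0.07 for subunits and -0.24 and -0.15 for all genes. Between 4 and 6 they were -0.09 and 0.01 for subunits and -0.13 and -0.11 for all genes. In the dimmer bins subunits were lower in medium arteries. There they had -0.12 against -0.05 at 2 to 4, -0.04 against 0.05 at 0 to 2 and -0.079 against -0.073 below 0. In large arteries these were -0.04 against -0.07, -0.025 against -0.016 and -0.19 against -0.07. Fewer members lay above 0 than below: 25 and 29 of 81, against 46.8% and 45% of all genes. The plot of all members' differences shows their scatter around 0.

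**Figure D1:**
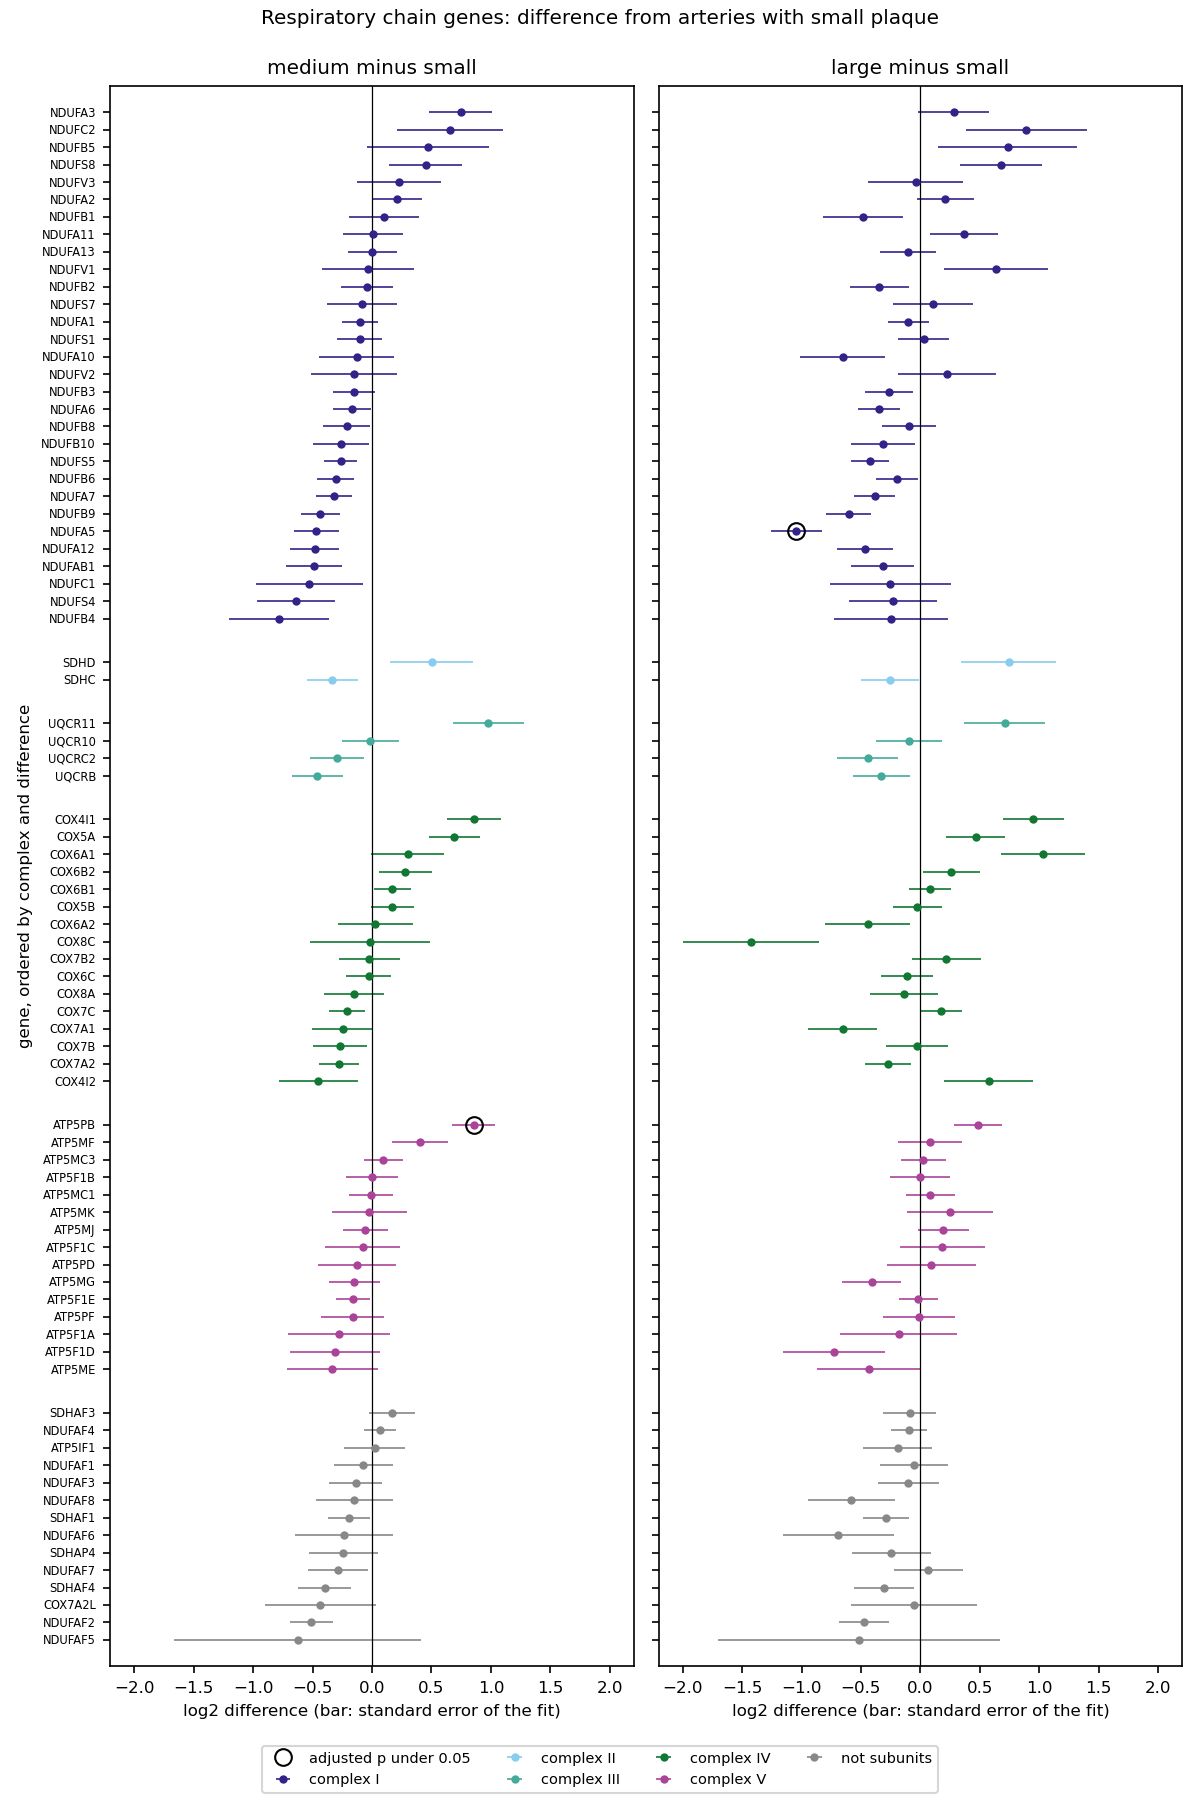
Difference in log2 intensity of each of the 81 genes between medium and small (left) and large and small arteries (right), by complex; points are the fitted differences, bars their standard errors, and circles mark an adjusted p under 0.05. ATP5PB is circled in the left panel and NDUFA5 in the right. Within 0.5 of 0 lie 69 and 63 of the 81 genes, against 12993 and 12491 of all 18160 genes.

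Complex I, the NADH dehydrogenase, had 30 measured subunits, with a median difference of -0.14 in medium and -0.21 in large arteries. Of the 30, 9 lay above 0 in medium and 10 in large arteries. The subunit that passed the test was NDUFA5, an accessory subunit of the matrix arm. Its log2 intensity was 5.29, 4.75, 5.09 and 5.60 in the small arteries, 4.72, 4.79, 4.64, 4.86 and 4.58 in the medium ones and 4.20, 4.40 and 3.82 in the large ones. All 3 large arteries lay below every other artery, and the medium ones overlapped the small ones. NDUFA5 fell by 1.04 ± 0.22 (SE) in large against small arteries (adjusted p = 0.042). In medium against small arteries the difference was -0.47 ± 0.19 (adjusted p = 0.214), and in large against medium it was -0.58 ± 0.21 (adjusted p = 0.953). The slope was -1.22 ± 0.26 per mm2 of plaque (adjusted p = 0.0549).

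The NDUFA5 call was near the threshold. It was lost when any of 9 single arteries was left out: small replicates 1, 3 and 4, medium replicates 2 to 5 or large replicates 1 and 3, with adjusted p from 0.0514 to 0.176. The difference stayed between -1.19 and -0.88 in all 26 alternative settings, of which 12 kept the call.

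Other complex I subunits gave smaller or less certain differences. NDUFB9, an accessory subunit of the membrane arm, was 3.42, 3.25, 3.16 and 3.42 in small, 2.86, 3.20, 2.80, 2.77 and 2.75 in medium and 2.46, 3.02 and 2.64 in large arteries. Its large arteries lay below all small ones, yet the differences of -0.44 ± 0.16 and -0.60 ± 0.19 did not pass (adjusted p = 0.184 and 0.139). NDUFS5, another accessory subunit, was 7.68 to 7.96 in small and 7.13 to 7.63 in the other 8 arteries, with no overlap, and differences of -0.26 and -0.43 (adjusted p = 0.215 in large). NDUFA3 had the highest complex I difference in medium arteries, 0.74 ± 0.26 (adjusted p = 0.155), and 0.28 in large ones. The core subunits that carry electrons were spread on both sides of 0. NDUFS1 differed by -0.10 and 0.03, NDUFS8 by 0.45 and 0.68, and NDUFV1 by -0.03 and 0.64, none past the threshold. NDUFV2, also a core iron-sulfur subunit, ranged from 4.62 to 6.58 in the small arteries alone, wider than the 5.42 to 6.39 of the other 8. This probe differed by -0.15 and 0.23, with an SD of 0.90 in small arteries. A dimmer NDUFV2 probe had an SD of 0.34 there and gave -0.42 and -0.47 (adjusted p = 0.267 and 0.310). The dimmest gave -0.14 and -0.02.

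Complex II, succinate dehydrogenase, was represented by its membrane anchors SDHC and SDHD, and the catalytic SDHA and SDHB were not analysed here. SDHC was 6.75, 6.77, 5.95 and 6.82 in small, 6.36, 6.46, 6.04, 5.87 and 6.48 in medium and 6.30, 6.51 and 6.15 in large arteries. Small replicate 3 lay below the other small arteries, and the groups overlapped. SDHD was 3.72, 4.12, 2.71 and 4.36 in small, 5.13, 4.31, 3.92, 4.00 and 3.80 in medium and 4.72, 4.51 and 4.17 in large arteries, again with its lowest value in small replicate 3. The differences were -0.33 ± 0.22 and -0.25 for SDHC and 0.50 ± 0.35 and 0.74 ± 0.40 for SDHD, so the anchors had opposite signs and neither passed (adjusted p from 0.386 to 0.659).

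Of complex III, the cytochrome bc1 complex, 4 measured subunits fit the symbol rule, and none passed by limma. At an unadjusted p under 0.05 there was 1 in medium and 0 in large arteries, against 22.9% and 20.7% of all genes. CYC1, cytochrome c1 of the same complex, falls outside the rule and is not counted among the 4. Its probe differed by -0.04 and 0.03 (adjusted p = 0.935 and 0.956). UQCR11, a small accessory subunit, was 2.17, 1.73, 1.96 and 0.67 in small, 2.52, 2.45, 2.39, 3.14 and 2.55 in medium and 2.05, 2.17 and 2.81 in large arteries. All medium arteries lay above all small ones, and the large group overlapped both. The difference was 0.98 ± 0.30 in medium (adjusted p = 0.104) and 0.71 ± 0.34 in large arteries (adjusted p = 0.333). Its second, dimmer probe gave 0.47 and 0.21. UQCRB, the ubiquinone-binding protein, was 7.78, 7.08, 6.58 and 7.37 in small arteries, and its 8 other values ran from 6.67 to 7.08. Its difference of -0.46 ± 0.21 in medium arteries did not pass (adjusted p = 0.273). On a second, dimmer UQCRB probe the small arteries had an SD of 0.05. That probe gave -0.36 and -0.45, which did not pass either (adjusted p = 0.1745 and 0.168). UQCRC2, a core protein, differed by -0.30 and -0.44, and UQCR10 by -0.01 and -0.09.

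Complex IV, cytochrome c oxidase, had 16 measured subunits, medians of -0.02 and 0.03, and no call by limma. At an unadjusted p under 0.05 there were 2 subunits in medium and 4 in large arteries. These were 12.5% and 25% of the 16, against 22.9% and 20.7% of all genes. The highest medium difference of the complex was that of COX4I1, the ubiquitous form of subunit IV. COX4I1 was 6.59, 5.77, 5.73 and 6.0 in small, 7.41, 6.48, 6.66, 6.95 and 6.90 in medium and 7.10, 6.76 and 7.06 in large arteries. Each large artery lay above every small one, and among the medium ones medium replicate 2 lay below small replicate 1. The differences were 0.86 ± 0.23 (adjusted p = 0.0669) and 0.95 ± 0.26 (adjusted p = 0.0993), with a slope of 1.30 ± 0.31 per mm2 (adjusted p = 0.0705). Without small replicate 1, COX4I1 passed in both comparisons, with 1.05 (adjusted p = 0.028) and 1.14 (adjusted p = 0.0358). It also passed in medium against small after quantile normalization, at 1.09 (adjusted p = 0.0157). Of 26 alternative settings, COX4I1 passed in 6 in medium and in 3 in large against small. COX5A, its partner in early assembly of the enzyme, lay near the array median, at -0.21, -1.03, -0.70 and -0.79 in small, -0.24, -0.33, 0.01, 0.29 and 0.30 in medium and -0.39, -0.41 and 0.14 in large arteries. Its values overlapped, and its differences of 0.69 ± 0.22 and 0.46 did not pass (adjusted p = 0.111 and 0.381).

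Several complex IV subunits exist as tissue isoforms, and no form of COX4I, COX6A, COX6B, COX7A, COX7B or COX8 passed the test. The pairs COX4I1 and COX4I2, COX6A1 and COX6A2, and COX7A1 and COX7A2 are described here. COX4I2, the form known for response to low oxygen, was dim: -1.52, -2.08, -2.92 and -2.10 in small, -2.27, -2.89, -1.68, -3.02 and -3.17 in medium and -1.43, -1.64 and -1.67 in large arteries, where -3.17 is the floor set for the lowest values. All large arteries lay above all medium ones, and the large minus medium difference was 1.03 ± 0.36 (adjusted p = 0.951). COX6A1, the general form of subunit VIa, was 5.26, 3.62, 4.16 and 3.92 in small, 4.99, 4.90, 4.42, 4.23 and 4.17 in medium and 5.00, 5.41 and 5.41 in large arteries. The large group lay above the medium group and overlapped the small one through small replicate 1. Its large minus small difference was 1.03 ± 0.35 (adjusted p = 0.175), and without small replicate 1 it was 1.37 (adjusted p = 0.0272). That was the 1 of 26 alternative settings in which COX6A1 passed, and adjusted p reached 0.368 among them. COX6A2, the form of heart and skeletal muscle, lay between -2.43 and -0.84 in every artery and differed by 0.03 and -0.44.

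COX7A1, the muscle form of subunit VIIa, was 3.08, 2.69, 3.05 and 2.63 in small, 1.80, 3.27, 2.94, 2.47 and 2.59 in medium and 2.14, 2.21 and 2.27 in large arteries. Large arteries lay below all small ones, and the difference was -0.65 ± 0.29 (adjusted p = 0.297). A second, dimmer COX7A1 probe gave -0.25 in large arteries (adjusted p = 0.789), with an SD of 0.76 there. COX7A2, the general form, was 6.75 to 7.38 in small, 6.58 to 6.76 in medium and 6.53 to 6.99 in large arteries, with differences of -0.28 and -0.27. A second, dimmer COX7A2 probe gave -0.0003 and 0.47, so the sign in large arteries was not shared. COX8C had the lowest difference of any member in large arteries, -1.43 ± 0.57 (adjusted p = 0.248), but it was dim and 3 of its 12 values were at the floor.

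**Figure D2:**
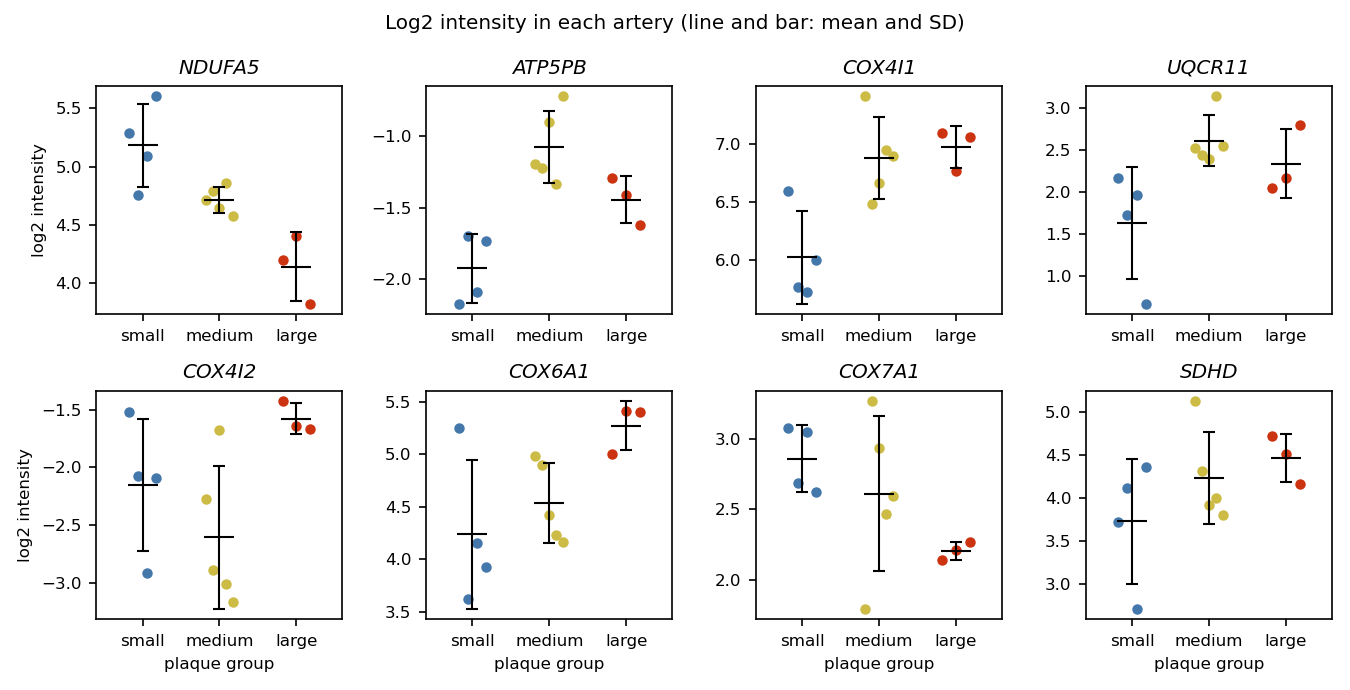
Log2 intensity of 8 genes in each artery, by plaque group; points are arteries, and the line and bar are the group mean and SD (n = 4, 5 and 3). NDUFA5 is lowest in the large arteries, ATP5PB is higher in all medium and large than in small arteries, and COX4I1 of small replicate 1 reaches into the range of the medium group.

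Complex V, the ATP synthase, had 15 measured subunits, with medians of -0.08 and 0.02, and 1 of them passed. ATP5PB encodes subunit b of the peripheral stalk. It was -2.18, -1.70, -2.09 and -1.74 in small, -1.20, -1.23, -0.90, -1.33 and -0.72 in medium and -1.29, -1.41 and -1.62 in large arteries, so every small artery lay below the others. ATP5PB rose by 0.85 ± 0.18 in medium against small arteries (adjusted p = 0.0252), and in large against small the difference was 0.48 ± 0.20 (adjusted p = 0.267). The probe is dim, below the array median in all 12 arteries. The call was lost without small replicate 1 or 3 or medium replicate 3 or 5, with adjusted p from 0.0514 to 0.0581. Over 25 alternative settings, of which 16 kept the call, the difference ran from 0.23 to 0.96.

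None of the catalytic and rotor subunits of complex V passed. ATP5F1B, the catalytic beta subunit, was 7.08, 6.78, 6.20 and 7.35 in small, 7.18, 6.99, 6.70, 6.73 and 6.67 in medium and 6.86, 6.89 and 6.80 in large arteries. Its mean was 6.85 in each group, and the 95% intervals of its differences were -0.48 to 0.48 and -0.55 to 0.54. ATP5MC1 and ATP5MC3, which encode the same rotor ring subunit, differed by -0.01 and 0.10 in medium and by 0.08 and 0.02 in large arteries. ATP5F1C, the central stalk subunit gamma, differed by -0.08 and 0.19, and by 0.78 and -0.03 on a second, dim probe with 2 values at the floor. ATP5F1D, subunit delta, differed by -0.31 and -0.73, but it was dim, with 1 value at the floor. The bright ATP5F1E, subunit epsilon, stayed between 8.13 and 8.68 in all 12 arteries.

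Of the 14 members that are not subunits none passed by limma. An unadjusted p under 0.05 was found for 1 of them in each comparison with small (7.14%, against 22.9% and 20.7% of all genes). Their medians were -0.21 and -0.22, with 3 and 1 of the 14 above 0. NDUFAF2, a complex I assembly factor, was 3.15, 2.75, 2.81 and 2.44 in small, 2.26, 2.44, 2.27, 2.55 and 1.88 in medium and 2.22, 2.35 and 2.38 in large arteries. Its large arteries lay below all small ones, and the differences were -0.51 ± 0.18 (adjusted p = 0.163) and -0.47 ± 0.21 (adjusted p = 0.292). SDHAF4, a complex II assembly factor, was 2.33 in small replicate 3 and 1.33 to 1.39 in the other small arteries, against 0.97 to 1.55 in the other 8. NDUFAF5, a complex I assembly factor picked out after its values were seen, was 4.95 in small replicate 3, 4.51 in medium replicate 3 and 4.08 in large replicate 1, and 0.20 to 1.68 in the other 9 arteries. These 3 arteries belong to different plaque groups, and no label sets them apart.

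The mean level of all 67 subunits, each gene centred on its own mean, was 0.02 ± 0.21 (SD, n = 4) in small, -0.01 ± 0.04 (n = 5) in medium and -0.01 ± 0.09 (n = 3) in large arteries. The spread among small arteries exceeded every difference between groups. Small replicate 1 stood at 0.30, and the other 11 arteries lay between -0.17 and 0.06. It held the highest value of the 12 arteries for 24 of the 66 subunits with complete values (36.4%), where it did so for 16.2% of all genes. Small replicate 3 held the lowest value for 18 of the 66 (27.3%), against 14.5% of all genes. By brightness, subunits with a mean log2 intensity above 6 stood at 0.43 in small replicate 1 and all genes above 6 at 0.41. Between 4 and 6 the subunits stood at 0.40 and all genes at 0.22, and between 2 and 4 at 0.48 and 0.02. After quantile normalization the subunit level of this artery was 0.12.

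By complex, small replicate 1 was the highest artery for complexes I (0.38), III (0.42) and IV (0.30), as the plot of complex levels by plaque area shows. Without it the complex I medians were -0.08 in medium and -0.02 in large arteries. Both complex I medians kept their sign in every alternative setting run, at -0.23 to -0.01 in medium and -0.22 to -0.02 in large arteries. The all-gene medians, -0.03 and -0.05 in the main fit, were negative too. Those of complexes II to V crossed 0 in some settings, complex IV without small replicate 1 at 0.06 in medium arteries for example.

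**Figure D3:**
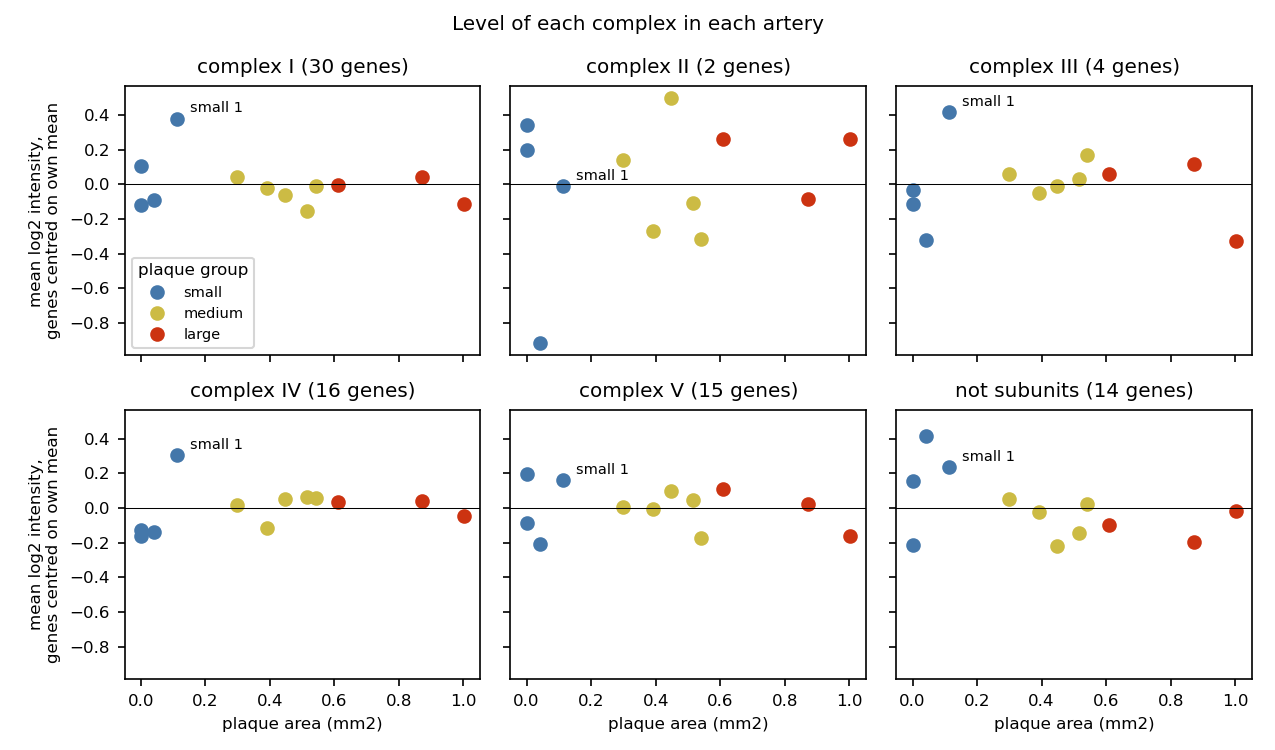
Mean log2 intensity of the genes of each complex, each gene centred on its own mean, in each artery against plaque area in mm2, coloured by plaque group. The small arteries spread most, with small replicate 1 at 0.38 for complex I and 0.30 for complex IV, and the medium and large arteries of these complexes lie close to 0.

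The mean pairwise Pearson correlation over the 12 arteries was 0.16 among the 50 subunits above the array median and 0.0115 among all genes above it, which is a description with no test, since the genes share arrays and brightness. Within groups the values were 0.206 and 0.0155. Without small replicate 1 the subunit value over the remaining arteries was 0.0648, and leaving out any other artery gave 0.153 to 0.184. Over all subunits, dim ones included, the mean over the 12 arteries was 0.0934, and by complex it was 0.126 for complex I, 0.303 for the 2 genes of complex II, 0.0558 for complex III, 0.041 for complex IV and 0.0627 for complex V.

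Between the 2 groups with more plaque, none of the 81 genes passed in large against medium by limma, and 0% of all genes did. At an unadjusted p under 0.05 there were 5 members (6.17%), against 5.03% of all genes. Of these 5, 4 belong to complex IV, 3 of them higher in large and 1 lower. The lower one, COX8C, was dim with 3 values at the floor, and COX4I2, higher, was dim with 1. The median difference was 0.01 for all members, 0.01 for complex I, -0.01 for complex IV and 0.09 for complex V. The groups did not overlap for COX4I2, COX6A1 and COX7C, higher in large, and NDUFA5, lower in large, which is 4 of 81 members (4.94%) against 5.76% of all genes.

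Against small arteries, the values did not overlap for 3 members in the medium group (3.7%, against 11.1% of all genes) and 9 in the large group (11.1%, against 18.4%). The 9 were ATP5PB and COX4I1, higher in large, and COX7A1, COX8C, NDUFA5, NDUFA7, NDUFAF2, NDUFB9 and NDUFS5, lower in large. Medium and large arteries together were apart from the small ones for ATP5PB and NDUFS5, 2 of 81 against 7.85% of all genes.

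With plaque area as a continuous measure, no member passed by limma, where 1.08% of all genes did. At an unadjusted p under 0.05 there were 11 members (13.6%), against 20.6% of all genes. The smallest adjusted p among those described were those of NDUFA5, NDUFB9 (-0.85 ± 0.19 per mm2, adjusted p = 0.0657) and COX4I1. Median slopes were -0.25 per mm2 for complex I, 0.10 for complex IV and -0.02 for complex V, and -0.05 for all genes.

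Lists of neighbouring pathways, taken from general knowledge, were set beside the chain. For comparison, 5.19% and 2.16% of all genes passed by limma in medium and large arteries, and 22.9% and 20.7% had an unadjusted p under 0.05. Of 15 other components and electron carriers, CYC1 among them, none passed by limma in either comparison with small. At an unadjusted p under 0.05 there were 2 and 1, and the medians were 0.14 and 0.24. The smallest p in medium arteries was that of COQ10A, a coenzyme Q binding protein (0.80 ± 0.21, adjusted p = 0.0597). Of 27 further assembly factors 1 passed: LYRM7, which matures the Rieske protein of complex III, rose by 1.27 ± 0.26 in medium arteries (adjusted p = 0.0236) and differed by 1.13 in large ones (adjusted p = 0.0897). Of 13 biogenesis regulators none passed by limma (0 and 3 at an unadjusted p under 0.05), and PPARGC1A, the coactivator that drives mitochondrial biogenesis, was dim and differed by -0.49 and -1.12 (adjusted p = 0.57 and 0.258). Of 10 membrane carriers none passed by limma (3 and 1 at an unadjusted p under 0.05), with medians of 0.28 and 0.23.

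In the fuel pathways that feed the chain, the calls are to be read against the 5.19% and 2.16% of all genes that passed in medium and large arteries. Of 20 citric acid cycle and pyruvate dehydrogenase genes 1 passed: PDHA1, the catalytic subunit that commits pyruvate to oxidation, was 5.29 to 5.66 in small, 4.70 to 5.00 in medium and 4.94 to 5.26 in large arteries. PDHA1 fell by 0.67 ± 0.15 in medium arteries (adjusted p = 0.0285), and its difference in large ones was -0.47 (adjusted p = 0.195). Of 13 fatty acid oxidation genes HADHA, of the trifunctional protein, rose by 1.62 ± 0.37 in medium arteries (adjusted p = 0.0378), and CPT2, which releases fatty acids to the matrix, rose by 1.42 ± 0.27 in large ones (adjusted p = 0.0268). The median of this list was 0.79 in medium and 0.26 in large arteries. At an unadjusted p under 0.05 by limma, 6 of the 13 were higher and 2 lower in medium arteries. In large arteries 5 were higher and 0 lower. Of all genes, 22.9% and 20.7% had such a p, in either direction.

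Of 16 glycolysis genes 3 rose in medium arteries and 2 in large ones, with a list median of 0.45 in both. HK3, a hexokinase of leukocytes, rose by 2.28 ± 0.44 and 2.48 ± 0.50 (adjusted p = 0.0176 and 0.0392). LDHA, the muscle-type lactate dehydrogenase, was 6.47, 5.99, 4.91 and 6.35 in small, 8.09, 6.95, 6.79, 7.60 and 7.20 in medium and 7.30, 7.20 and 7.10 in large arteries, with no overlap, and rose by 1.39 ± 0.33 in medium ones (adjusted p = 0.0435). ENO1, enolase, rose by 1.06 ± 0.25 in medium arteries (adjusted p = 0.0405), and HK1, the general hexokinase, by 1.98 ± 0.40 in large ones (adjusted p = 0.0403). The part of the macrophage markers given above in these values was not tested. The difference between these lists and the respiratory chain was not tested either.

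**Figure D4:**
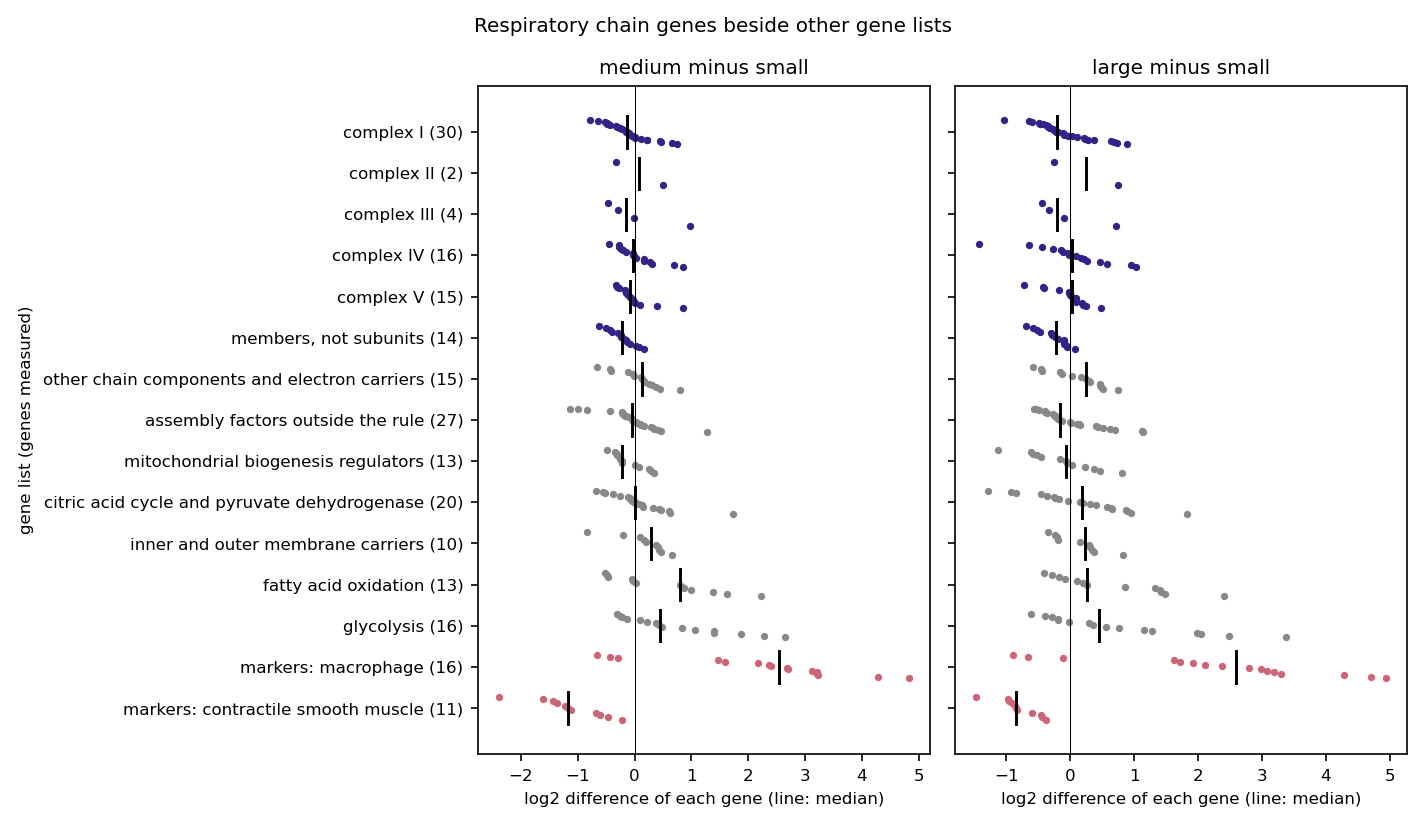
Log2 difference of every measured gene of the 5 complexes that fits the symbol rule, of the members that are not subunits and of 9 other lists. Panels show medium minus small (left) and large minus small (right), and the vertical line in each row is the list's median. The complexes' medians lie between -0.21 and 0.24, fatty acid oxidation at 0.79 and 0.26, and glycolysis at 0.45 in both panels. Macrophage markers lie at 2.54 and 2.59, and contractile smooth muscle markers at -1.17 and -0.85.

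Further cell type markers gave few calls. The shares of all genes were again 5.19% and 2.16% called, and 22.9% and 20.7% at an unadjusted p under 0.05 by limma. None of 10 endothelial, 7 fibroblast or 2 red blood cell markers passed by limma, with 1, 4 and 0 at an unadjusted p under 0.05 in medium and 1, 1 and 0 in large arteries. Among 6 adipocyte markers LPL rose in both groups, and among 7 T cell markers GZMA rose in medium arteries. Of 9 skeletal muscle markers TNNC2 and TNNT3 fell in medium arteries, and their summed intensity was 29.33 to 61.91 in small, 14.28 to 33.43 in medium and 13.47 to 36.36 in large arteries. The muscle isoforms COX6A2 and COX7A1 are given above, and the part of skeletal muscle in them was not tested.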

How the data were processed

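Per the labels' protocols, total RNA of 12 arteries, each from a separate animal, was amplified to biotinylated cRNA and hybridized to 1-colour CodeLink arrays. The authors deposited linear intensity values with array medians near 1, some below 0; no source used here gives the background method, scaling or software. Intensities below 0.111, the 5th percentile of positive values, were set to it (5.45% of values) before log2. Probes with at least 2 values per group were tested in limma 3.58.1 (R 4.3.3): lmFit with 3 group means, or plaque area, then eBayes, two-sided, Benjamini-Hochberg over 53877 probes. The fit was checked on simulated data. Symbols come from GEO's platform annotation; 23267 tested probes have 1 symbol, 900 several and 29710 none, and 80 of the 81 members' symbols are in macaque RefSeq (T2T-MFA8v1.1). All 81 members passed the filter, 79 with a value on every array. The members and lists were chosen with earlier results of these data known. Artery values are given for members that passed, for the 2 of smallest p in complexes without a call and for isoform pairs. Others were added for their role or, as with NDUFB9, NDUFS5 and NDUFAF5, after their values were seen. Promoter motifs were planned but not analysed here. Replicate numbers were not taken to pair arteries. The number of arrays limits the precision.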

Additional observations from a re-analysis of the deposited data

Results flagged for a closer look

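In groups of 4 or 5 arteries, 44 sets of values were searched for an artery far from the rest, and 5 stood out; chance gives about 1 in 20. The complex IV level of small replicate 1 was 0.3046, with the other small arteries at -0.1604 to -0.1279. The complex IV level of medium replicate 3 was -0.1131, with the others at 0.02 to 0.06688. SDHC in small replicate 3 was 5.954, against 6.755 to 6.821, and SDHAF4 in the same artery was 2.331, against 1.33 to 1.391. UQCR11 in medium replicate 4 was 3.143, against 2.393 to 2.554. What set these arteries apart was not tested.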

How the results depend on the processing

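The calls were few and lay near the threshold, so most settings moved the counts. Members called were 1 in medium against small, 1 in large against small, 0 in large against medium and 0 for the slope; large against medium stayed at 0 in every alternative. Quantile normalization gave 2 in medium and 0 in large; a floor at the 1st percentile gave 0 in large and at the 20th 2 for the slope; log2 of value plus 1 gave 4 for the slope. Probes above the array median alone gave 2 in large and 3 for the slope. The eBayes trend gave 2 slopes, and 3 with robust added. Array weights gave 2 in medium, 2 in large and 1 slope. Fitting only the groups compared gave 0 and 0. A threshold of 0.10 gave 2, 2 and 3 slopes, and the square root of area 3 slopes. Without small replicate 4 and medium replicate 5, whose identity numbers lie apart from the rest, both counts were 0. Leaving out 1 artery gave 0 to 1 in medium, 0 to 2 in large, 0 to 0 in large against medium and 0 to 2 for the slope.

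With the replicate number as a block, the counts were 0 in medium and 0 in large; both calls were lost. In their deviations the 10 same-numbered pairs of arteries correlated at -0.159 to 0.216 (median 0.0824, 9 above 0) and other pairs at -0.203 to 0.228 (median -0.0228), and no label ties a number to a shared source, so the numbers were not taken as pairs. ATP5PB was called in medium in 16 of 25 alternatives and NDUFA5 in large in 12 of 26, with no change of sign. The ATP5PB difference ran from 0.23 to 0.96 over these alternatives. With log2 of value plus 1, with trend and robust, and without small replicate 1, the 1 medium call was COX4I1 and not ATP5PB. COX4I1 was called in 6 of 26 in medium and 3 of 26 in large, and COX6A1 in 1 of 26 in large. Correlations among subunits without each artery were added after seeing the data. Signal over background limits the dim probes: 9 members had a value at the floor.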
